A study of Mus musculus with 59 samples.

Results

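To describe how BCL6, PPARα and PPARδ bound the genes by which the liver takes up glucose, burns it and stores it as glycogen, all peaks of 9 genes were collected: *Slc2a2*, *Gckr*, *Pfkfb1*, *Pklr*, *Gys2*, *Pygl*, *Ppp1r3b*, *Ppp1r3c* and *Ppp1r3g*. A peak belonged to one of these genes if its center lay in the gene, or if the nearest transcription start site (TSS) of a protein-coding RefSeq gene, within 100 kb, was that of the gene. The genes were picked for their function in glycogen and glucose metabolism rather than by their peaks, but with earlier results of these data known. By this rule the 9 of 21774 protein-coding genes held 62 of 40474 sites, where a site is a group of peak centers from any list joined at distances of up to 200 bp.

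The study mapped the 3 factors by ChIP-seq, in which DNA fragments crosslinked to a protein are pulled down with an antibody and sequenced, to ask how liver genes are controlled in feeding and fasting. Wild-type C57BL/6 mice were either fed *ad libitum* with standard chow or fasted overnight, and BCL6, PPARα and PPARδ were each mapped in both states. BCL6 was also mapped in fed *Bcl6* fl/fl mice, which carry loxP sites in *Bcl6* but no Cre and served as controls of a liver knockout. Each of these 7 groups held 3 livers, 1 library per animal and 21 libraries in all, and the ages of the animals were not given in the sources used here. The 3 libraries of a group were combined into 1 peak list that gives only positions, so no value below has a spread between animals, the depth is unknown, and fed and fasted livers could not be compared by a test. Each list therefore only tells whether a site was called, and a site that was not called may still have been bound. Intervals are 95% Wilson intervals that cover counting error only, since neighboring sites are not replicates. Whole liver was used. Of the marker genes of its cell types, 8 of 8 for hepatocytes had a PPARα peak in each state, compared with 0 of 4 in the fed and 1 of 4 in the fasted state for Kupffer cells, 3 of 4 in both states for endothelium, 1 of 4 in both for stellate cells, 2 of 4 in both for cholangiocytes and 0 of 4 in both for B cells.

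BCL6 is a zinc finger repressor of transcription. PPARα and PPARδ are receptors for fatty acids that bind DNA together with RXR at DR1 elements, a direct repeat of AGGTCA with 1 base between the copies, and PPARα is known for turning on fat oxidation in the fasted liver. After a meal the liver takes up glucose, traps it and lays it down as glycogen, and between meals it breaks glycogen down again to keep blood glucose steady. Glycogen synthase builds the polymer, glycogen phosphorylase shortens it, and a family of targeting subunits brings protein phosphatase 1 (PP1) to the glycogen particle, where it switches the synthase on and the phosphorylase off.

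The sequences below show the sites with an element of the factors, and the sites with the most factors, on the plus strand of mm10. They comprise the sites outside exons of coding transcripts that hold a match to the BCL6 element TTCCTAGAA with at most 1 mismatch or to DR1 with at most 1 mismatch, the site called in all 7 lists, and the promoter sites called for all 3 factors. Capitals mark each match to the BCL6 element and each match to DR1 with at most 2 mismatches, on either strand, and a sequence all in lower case holds neither. Distances are from the nearest TSS of a curated transcript of the gene, negative when upstream.
Gys2 +1742 (intron 1, DR1), chr6:142471267-142471466: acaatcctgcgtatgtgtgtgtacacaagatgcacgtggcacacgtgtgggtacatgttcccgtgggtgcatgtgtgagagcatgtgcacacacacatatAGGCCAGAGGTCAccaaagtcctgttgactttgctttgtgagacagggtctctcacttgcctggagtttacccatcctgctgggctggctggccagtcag
Ppp1r3g -4046 (upstream, DR1), chr13:35963760-35963959: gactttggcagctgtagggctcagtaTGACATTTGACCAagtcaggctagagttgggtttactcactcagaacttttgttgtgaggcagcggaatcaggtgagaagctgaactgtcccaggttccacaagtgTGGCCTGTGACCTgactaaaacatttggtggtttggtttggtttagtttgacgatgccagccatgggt
Ppp1r3g +21136 (Lyrm4 intron 2, DR1), chr13:35988942-35989141: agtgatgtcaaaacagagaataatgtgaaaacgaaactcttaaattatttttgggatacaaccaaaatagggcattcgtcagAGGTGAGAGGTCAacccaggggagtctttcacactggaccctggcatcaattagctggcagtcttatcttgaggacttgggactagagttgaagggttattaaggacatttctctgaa
Ppp1r3g +26281 (Lyrm4 intron 2, BCL6 element), chr13:35994087-35994286: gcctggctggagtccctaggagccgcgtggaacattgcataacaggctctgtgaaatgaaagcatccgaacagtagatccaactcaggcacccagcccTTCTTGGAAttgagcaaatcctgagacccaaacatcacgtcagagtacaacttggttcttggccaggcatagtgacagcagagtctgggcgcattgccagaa
Ppp1r3b +33725 (downstream of the gene, BCL6 element), chr8:35410287-35410486: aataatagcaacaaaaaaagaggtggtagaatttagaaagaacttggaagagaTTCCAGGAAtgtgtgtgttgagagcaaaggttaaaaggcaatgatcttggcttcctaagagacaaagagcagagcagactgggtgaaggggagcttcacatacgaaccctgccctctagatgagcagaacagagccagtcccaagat
Ppp1r3c -44713 (upstream, BCL6 element), chr19:36781217-36781416: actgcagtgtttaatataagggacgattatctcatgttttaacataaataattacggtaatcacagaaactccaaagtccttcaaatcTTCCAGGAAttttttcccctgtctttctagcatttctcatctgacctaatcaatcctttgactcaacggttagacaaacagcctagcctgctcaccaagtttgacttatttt
Ppp1r3c +48245 (Hectd2os intron 1, all 7 lists), chr19:36688259-36688458: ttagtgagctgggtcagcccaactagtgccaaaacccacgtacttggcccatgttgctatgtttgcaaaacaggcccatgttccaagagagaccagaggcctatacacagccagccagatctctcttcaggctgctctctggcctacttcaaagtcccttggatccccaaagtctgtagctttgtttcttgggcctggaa
Slc2a2 -29 (promoter, 3 factors), chr3:28697774-28697902: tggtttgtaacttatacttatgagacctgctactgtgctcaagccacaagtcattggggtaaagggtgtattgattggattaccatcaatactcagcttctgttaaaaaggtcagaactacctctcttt
Ppp1r3b -283 (promoter, 3 factors), chr8:35375376-35375575: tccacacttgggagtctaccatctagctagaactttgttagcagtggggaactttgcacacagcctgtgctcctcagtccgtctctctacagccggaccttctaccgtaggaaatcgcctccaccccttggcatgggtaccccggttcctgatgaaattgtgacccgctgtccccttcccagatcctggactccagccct
Pfkfb1 -982 (promoter of the shorter transcripts, 3 factors), chrX:150593346-150593545: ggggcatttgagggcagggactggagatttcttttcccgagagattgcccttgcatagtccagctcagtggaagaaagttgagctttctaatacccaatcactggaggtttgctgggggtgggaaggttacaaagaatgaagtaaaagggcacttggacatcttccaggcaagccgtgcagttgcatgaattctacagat

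In *Gys2* the DR1 match covers bases 101 to 113 of the printed window and has 1 mismatch. The *Ppp1r3g* site 4046 bp upstream holds a pair of DR1 matches on the minus strand, at bases 27 to 39 with 2 mismatches and at bases 133 to 145 with 1 mismatch, and the site 21136 bp downstream holds 1 match on the plus strand with 1 mismatch. The BCL6 element at *Ppp1r3b* +33725 and *Ppp1r3c* -44713 has the same letters at both sites and matches on the minus strand with 1 mismatch, whereas that at *Ppp1r3g* +26281 differs from both. The *Slc2a2* sequence is the 129 bases of its window that precede the first exon.

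Across the 9 genes, the fed C57BL/6 lists held 26 BCL6, 42 PPARα and 22 PPARδ peaks, and the fasted lists held 25, 53 and 4. The fed *Bcl6* fl/fl list held 30 BCL6 peaks. In C57BL/6 livers the BCL6 count of these genes thus fell by 3.85% from fed to fasted, compared with 38.5% over all BCL6 peaks. It fell at *Slc2a2* (6 to 3), *Ppp1r3b* (7 to 5) and *Pfkfb1* (2 to 1). It rose at *Ppp1r3g* (3 to 6), *Gys2* (2 to 3) and *Ppp1r3c* (5 to 6), and was 1 in both states at *Pygl*. The PPARα count was 26.2% higher in the fasted list, compared with 35.8% over all PPARα peaks, and the PPARδ count fell by 81.8%, compared with 67.3% over all PPARδ peaks. Since the lists have no spread between animals, these differences were not tested.

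**Figure D1:**
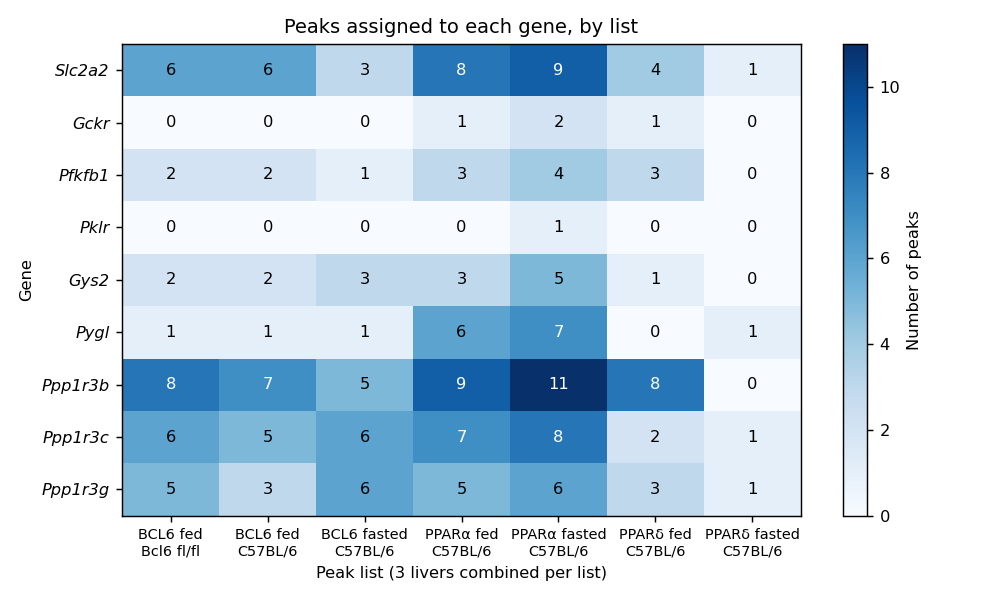
Number of peaks (color and printed number) assigned to each of the 9 genes (rows) in each of the 7 peak lists (columns), each list combining 3 livers. *Gckr* and *Pklr* had no BCL6 peak in any list, *Ppp1r3b* had the highest counts for PPARα (11 fasted) and PPARδ (8 fed), and the fasted PPARδ column holds at most 1 peak per gene.

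PPARα was called at more of the genes than the other factors were. In the fasted list 9 of 9 genes had a PPARα peak, compared with 46.0% of all protein-coding genes, and in the fed list 8 of 9, compared with 34.3%, *Pklr* being the exception. BCL6 had a peak at 7 of 9 genes in the fed list (28.0% of all genes), in the fasted list (20.6%) and in the *Bcl6* fl/fl list (30.9%), and the same genes, *Gckr* and *Pklr*, had none in each. PPARδ had a peak at 7 of 9 genes in the fed list, compared with 18.6% of all genes, and at 4 of 9 in the fasted list, compared with 8.69%. The hepatocyte marker genes had peaks about as often. PPARα had a peak at 8 of 8 of them in each state, and BCL6 at 7 of 8 in each of its lists. PPARδ had one at 7 of 8 in the fed and 4 of 8 in the fasted list. Shares above those of all genes were thus not particular to the 9 genes.

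The genes differed widely in how many sites they held. *Ppp1r3b* had 14 sites, *Ppp1r3c* 11, *Slc2a2* 10, *Pygl* 8, *Ppp1r3g* 7, *Gys2* 5, *Pfkfb1* 4, *Gckr* 2 and *Pklr* 1. The median was 7, compared with 1 over all protein-coding genes and 2 over the 11437 genes with at least 1 site. Of all genes, 1.43% had at least as many sites as *Ppp1r3b*, whereas 52.5% had at least as many as *Pklr*, that is, 1 or more. Genes with long stretches of sequence around them can gather more sites by the nearest-TSS rule, so the counts were also given per length of genome that the rule assigned to each gene. By this measure the 9 genes held 72.5 sites per Mb over 0.856 Mb, compared with 20.2 over all protein-coding genes. The range was from 34.1 at *Pklr* to 90.6 at *Ppp1r3c*, and *Ppp1r3b* was at 87.3. The value of *Pklr* rests on 1 site in 29.3 kb and that of *Gckr* on 2 sites in 54.3 kb. The value over all protein-coding genes includes those without a site.

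**Figure D2:**
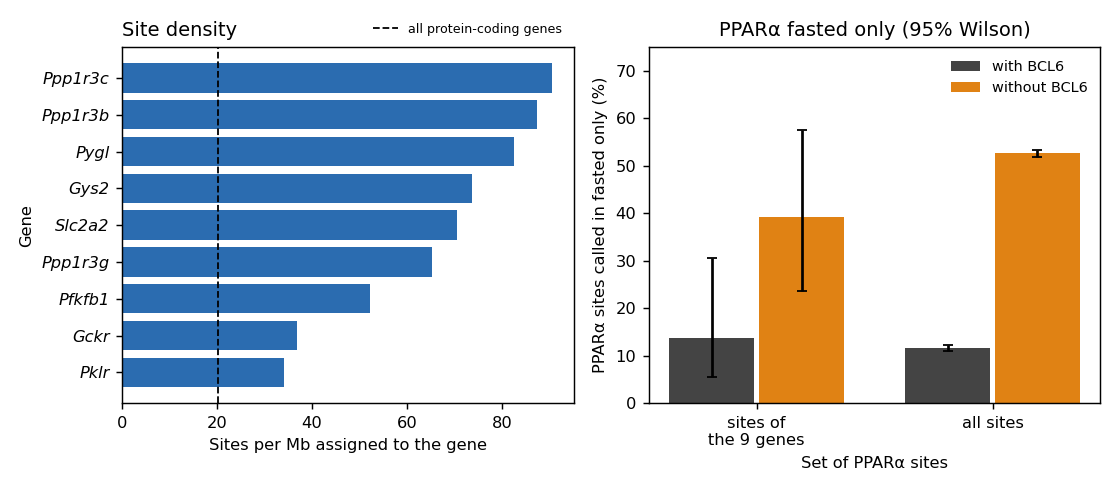
Left, sites per Mb of genome assigned to each of the 9 genes, with the value over all protein-coding genes (20.2), with or without a site, as a dashed line. Each of the 9 genes lies above it, *Pklr* with only 1 site. Right, share of PPARα sites called only in the fasted list, for sites with and without a C57BL/6 BCL6 peak, at the 9 genes (13.8% and 39.3%) and over all sites (11.7% and 52.6%), with 95% Wilson intervals.

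Glucose transport and capture were represented by *Slc2a2* and *Gckr*. *Slc2a2* encodes GLUT2, the glucose transporter of the hepatocyte surface, and held BCL6 at 6 sites in the fed and 3 in the fasted list, PPARα at 8 and 9, and PPARδ at 4 and 1. Its promoter site, centered 29 bp upstream of the TSS (chr3:28697712-28698004), was called for PPARα and PPARδ in both states but for BCL6 only in the 2 fed lists. Upstream, the site at -15815 had BCL6 and PPARα in both states with PPARδ in the fed state only, and so had the intronic sites at +16609 (intron 4) and +24860 (intron 8). In C57BL/6 livers BCL6 was also called only in the fed state at +8057, in intron 2, and at +39277, beyond the end of the gene. The fed *Bcl6* fl/fl list held a call at +8057 but not at +39277. At +39277 PPARα showed the opposite pattern, with a peak only in the fasted list. *Gckr* encodes the glucokinase regulatory protein, which holds glucokinase in the nucleus when glucose is low. It had 2 sites, and neither was called for BCL6. The one 249 bp upstream of the curated TSS was called for PPARα in both states and for PPARδ in the fed state, and its window held 2 DR1 matches with 2 mismatches each. The other, 591 bp downstream in intron 1, was called only for fasted PPARα.

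The glycolytic genes had few sites, all within 4665 bp of a TSS. *Pfkfb1* encodes the liver form of the enzyme that makes and degrades fructose 2,6-bisphosphate, the switch between glycolysis and gluconeogenesis. It held 2 BCL6 peaks in the fed and 1 in the fasted list, 3 and 4 for PPARα, and 3 and 0 for PPARδ. The fed-only BCL6 site was the one printed above, 982 bp upstream of the TSS of the shorter transcripts and in an intron of the longer ones, where PPARα was called in both states and PPARδ in the fed state. At +3930 BCL6 was called in both states. A fasted-only PPARα site 118 bp upstream of another TSS of *Pfkfb1* also lay in the first exon of the neighboring gene *Apex2*, whose TSS was the nearer one, so it cannot be said which gene it belongs to. *Pklr* encodes pyruvate kinase of liver and red cells, the last step of glycolysis, and is transcribed from an upstream start in red cells and a downstream start in liver. Its only site lay between the curated starts, 345 bp downstream of the first and 136 bp upstream of the second, and was called only for fasted PPARα.

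At the enzymes that build and degrade glycogen, PPARα accounted for most peaks. *Gys2*, the liver glycogen synthase, had PPARα at 3 sites in the fed and 5 in the fasted list, and each of its 5 sites was called for PPARα. The site with the DR1 match printed above, in intron 1 at +1742, was called for PPARα in both states and for PPARδ in the fed state, but not for BCL6. Its window also held 2 E-boxes (CACGTG), an element of basic helix-loop-helix factors. BCL6 was called at 2 *Gys2* sites in the fed and 3 in the fasted list. Those called in both states lay in the coding sequence of exon 4 (+13638) and in intron 7 (+21424), and at the latter PPARα was called only in the fasted state. At the TSS itself (+30) BCL6 was called in the fasted but not the fed C57BL/6 list. The same position was called in the fed *Bcl6* fl/fl list, so this difference between feeding states did not hold across the fed lists. *Pygl*, the liver glycogen phosphorylase, had PPARα at 6 sites in the fed and 7 in the fasted list but BCL6 at only 1. That site, 6166 bp upstream, was called for BCL6 and PPARα in both states and for PPARδ in the fasted state alone, and of the 62 sites it was the only one with PPARδ in the fasted list but not in the fed list. It lay in an exon of the noncoding RNA *F730035M05Rik*. The *Pygl* promoter site at -101 had PPARα in both states and no other factor. The farthest *Pygl* sites, 55886 and 52839 bp upstream, lay in introns 3 and 5 of *Trim9*.

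The 3 genes for glycogen-targeting subunits of PP1 held 32 of the 62 sites. Together they had 15 BCL6 peaks in the fed and 17 in the fasted list, 21 and 25 for PPARα, and 13 and 2 for PPARδ. *Ppp1r3b* encodes G(L), the main targeting subunit of liver. Its BCL6 peaks numbered 7 fed and 5 fasted, its PPARα peaks 9 and 11, and its PPARδ peaks 8 and 0. The 8 fed-only PPARδ sites of *Ppp1r3b* lay between -74656 and +41341, and each of them was also called for PPARα in the fed or the fasted list. At -35347, +1760 and +29889 PPARα was called in the fasted list only. Of its promoter sites, the one at -283 had BCL6 and PPARδ in the fed state only and PPARα in both. The one at -900 had PPARα in the fasted state only. Beyond the end of the gene, the sites at +29889, +38951 and +41341 had BCL6 in both states and PPARδ in the fed state, with PPARα in both states at +38951 and +41341 and only in the fasted state at +29889. The +38951 site also held a DR1 match with 2 mismatches. At +33725, the site with the BCL6 element printed above, BCL6 was called in the fed state only.

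*Ppp1r3c* encodes PTG, a targeting subunit found in many tissues. BCL6 was called at 5 of its sites in the fed and 6 in the fasted list, PPARα at 7 and 8, and PPARδ at 2 and 1. The site at +48245 (chr19:36688202-36688508), in intron 1 of the noncoding RNA *Hectd2os*, was the only one of the 62 sites called in all 7 lists, and its window held no match to the BCL6 element or DR1. The site at -44713, with the BCL6 element printed above, was called for BCL6 in both states and in *Bcl6* fl/fl livers and for neither PPAR. The promoter site at -218 was called for PPARα alone, in both states. BCL6 and PPARα in both states were found at +3221, in the 3′ untranslated region of *Ppp1r3c*, and at +31675 and +72461, the last with fed PPARδ.

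*Ppp1r3g* encodes another targeting subunit of PP1. It had 3 BCL6 peaks in the fed and 6 in the fasted list, the widest gap of the 9 genes in that direction, with 5 and 6 for PPARα and 3 and 1 for PPARδ. The sites at -8036 and -4046 had BCL6 and PPARα in both states and PPARδ in the fed state. They lay upstream of the curated TSS but within the span of predicted transcripts of the gene, and the second holds the paired DR1 matches printed above. The other 5 sites lay in intron 2 of the neighboring gene *Lyrm4*. Of these, +33422, +42282 and +47972 were called for BCL6 only in the fasted C57BL/6 list, but +42282 and +47972 were also called in the fed *Bcl6* fl/fl list. At +26281, the site with the BCL6 element, BCL6 and PPARα were called in both states. At +21136, the site with the DR1 match, only fasted PPARα was called.

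**Figure D3:**
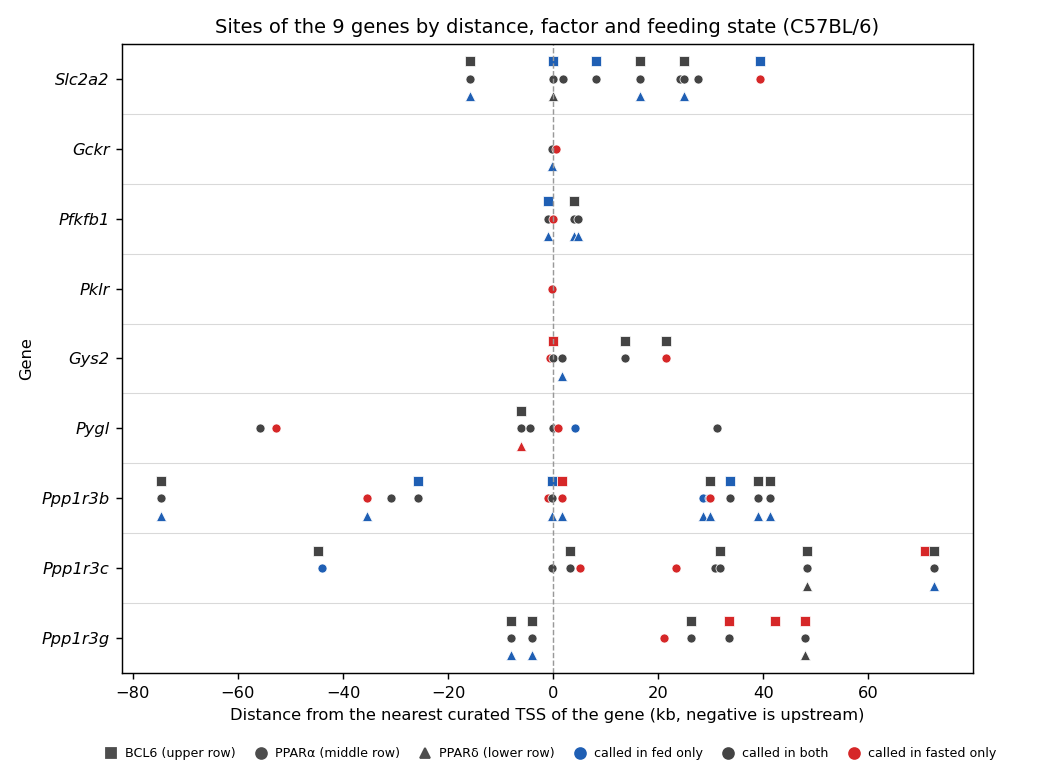
Each of the sites of the 9 genes (rows) by its distance from the nearest curated TSS of the gene, in kb. Squares (upper) stand for BCL6, circles (middle) for PPARα and triangles (lower) for PPARδ, colored by whether the factor was called in the fed list only, in both or in the fasted list only in C57BL/6 livers; of 23 PPARδ sites, 19 were called in the fed list only, 8 of them at *Ppp1r3b*. The 2 sites called only in the *Bcl6* fl/fl list are not drawn.

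With fed and fasted lists combined, BCL6 was called at 32 of the 62 sites in C57BL/6 livers, PPARα at 57 and PPARδ at 23. Of the BCL6 sites, 19 of 32 (59.4%, 42.3 to 74.5) were called in both states, compared with 43.7% of all BCL6 sites. Fed-only BCL6 sites numbered 7 (21.9%, 11.0 to 38.8), compared with 45.3%, and were found at *Slc2a2* (3), *Ppp1r3b* (3) and *Pfkfb1* (1). Fasted-only BCL6 sites numbered 6 (18.8%, 8.89 to 35.3), compared with 11.0%, and 3 of them were those of *Ppp1r3g*. Among the 3 classes, only the fed-only interval left out the value over all sites, which is not a test, since neighboring sites are not replicates. With the fed *Bcl6* fl/fl list in place of the fed C57BL/6 list, 3 of 33 BCL6 sites (9.09%) were fasted only. Fed-only sites were then 8 of 33 (24.2%), and 22 of 33 (66.7%) were called in both states. The share of fasted-only sites thus depended on which fed list was used.

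PPARα was called in both states at 38 of its 57 sites (66.7%, 53.7 to 77.5), compared with 51.3% of all PPARα sites. It was fasted only at 15 (26.3%, 16.6 to 39.0), compared with 35.8%, and fed only at 4 (7.02%, 2.76 to 16.7), compared with 12.8%. Fed-only PPARα sites were those of *Pygl* (1), *Ppp1r3b* (2) and *Ppp1r3c* (1). PPARδ was called in the fed state only at 19 of 23 sites (82.6%, 62.9 to 93.0), compared with 70.7% of all PPARδ sites. It was called in both states at 3 (13.0%, 4.54 to 32.1), compared with 18.7%, namely 1 each at *Slc2a2*, *Ppp1r3c* and *Ppp1r3g*. It was fasted only at 1 (4.35%, 0.772 to 21.0), compared with 10.6%. For PPARα only the interval of sites called in both states left out the value over all sites, and for PPARδ none did.

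**Figure D4:**
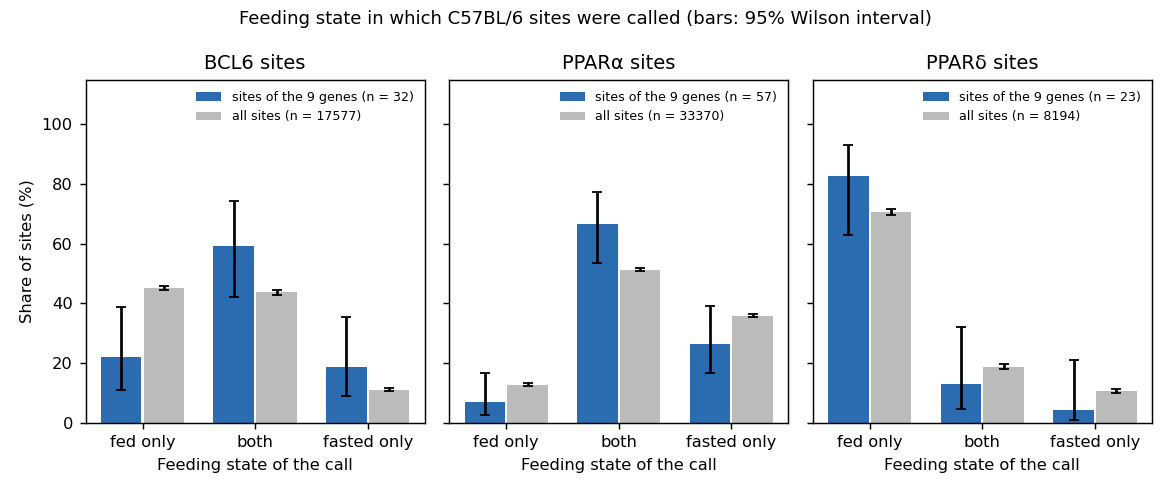
Share of BCL6, PPARα and PPARδ sites called only in the fed list, in both lists or only in the fasted list of C57BL/6 livers (percent, y axis), at the 9 genes (blue) and over all sites (gray), with 95% Wilson intervals. At the 9 genes 59.4% of BCL6 sites, 66.7% of PPARα sites and 13.0% of PPARδ sites were called in both states.

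To see how far the factors met at the same sites, calls of the 3 factors were compared at each site, with fed and fasted lists combined. Factors counted as shared could thus be called in different states. PPARα was called at 29 of 32 BCL6 sites (90.6%, 75.8 to 96.8), compared with 77.6% of all BCL6 sites, and BCL6 at 29 of 57 PPARα sites (50.9%), compared with 40.9%. Each of the 23 PPARδ sites also had PPARα (100%, 85.7 to 100), compared with 85.1% of all PPARδ sites. At -35347, +1760 and +29889 of *Ppp1r3b*, however, PPARδ was called only in the fed and PPARα only in the fasted list. All 3 factors were called at 18 of 62 sites (29.0%), compared with 11.5% of all sites, and PPARα alone at 23 (37.1%), compared with 43.0%. The 3 BCL6 sites without PPARα were -44713 and +70798 of *Ppp1r3c* and +42282 of *Ppp1r3g*. Where BCL6 from any list and PPARα were both called, the mean centers of their peaks were a median of 34.6 bp apart (at most 144, n = 30), and 63.3% lay under 50 bp apart. Over all such sites the median was 23.5 bp and 79.9% lay under 50 bp. The joining of centers at distances of up to 200 bp limits such values beforehand.

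PPARα sites with BCL6 were called in both states more often than those without it, which was not tested. Of the 29 with C57BL/6 BCL6, 25 (86.2%, 69.4 to 94.5) were called for PPARα in both states, compared with 76.3% over all such sites. Of the 28 without it, 13 (46.4%, 29.5 to 64.2) were, compared with 34.0%. Fasted-only PPARα was found at 4 of the 29 (13.8%, 5.50 to 30.6; all such sites, 11.7%) and at 11 of the 28 (39.3%, 23.6 to 57.6; all such sites, 52.6%). Fed-only PPARα was found at 0 of the 29, for which the interval reaches 11.7%, and at 4 of the 28 (14.3%), compared with 12.0% and 13.4% over all such sites. The 4 with BCL6 and fasted-only PPARα were +21424 of *Gys2*, +39277 of *Slc2a2*, and +1760 and +29889 of *Ppp1r3b*. The difference between sites with and without BCL6 thus ran in the same direction at the 9 genes and over all sites. The paper reports that peaks shared by BCL6 and PPARα had the strongest binding of either factor. Since the lists hold no signal, sites of like strength could not be compared.

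The fed *Bcl6* fl/fl list offered a separate set of 3 livers for BCL6 in the fed state. Of the 26 sites called for BCL6 in fed C57BL/6 livers, 23 (88.5%, 71.0 to 96.0) were also called in *Bcl6* fl/fl livers, compared with 69.6% of all sites. This was the case for 18 of 19 sites called in both states (94.7%; all sites, 88.7%) and 5 of 7 fed-only sites (71.4%; all sites, 51.1%). It was also the case for 4 of 6 sites that were fasted only in C57BL/6 livers (66.7%, 30.0 to 90.3), compared with 49.1% of all such sites. These 4 were at *Gys2* (+30), *Ppp1r3b* (+1760) and *Ppp1r3g* (+42282 and +47972), so that only +33422 of *Ppp1r3g* and +70798 of *Ppp1r3c* were called in the fasted list and in neither fed list. Another 2 sites were called in the *Bcl6* fl/fl list alone, 2140 bp upstream of *Slc2a2* and in the 3′ untranslated region of *Ppp1r3b*. The fed-only C57BL/6 sites that were not called in the *Bcl6* fl/fl list were -25730 of *Ppp1r3b* and +39277 of *Slc2a2*.

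Promoters, taken as the 1000 bp before and 100 bp after a curated TSS, held 11 of 62 sites (17.7%), compared with 12.6% of all sites. These belonged to 8 of the 9 genes, *Ppp1r3g* being the exception, and each of the 11 was called for PPARα. In or out of promoters, PPARα was called at 57 of the 62 sites and at 33370 of all 40474 sites. The same counts were not made for the promoter sites of all genes. BCL6 was called at 4 of the 11 promoter sites, at *Slc2a2*, *Pfkfb1*, *Gys2* and *Ppp1r3b*. BCL6 sites with PPARα were in a promoter in 4 of 29 cases (13.8%), compared with 4.49% of all such sites, and PPARα sites without BCL6 in any list in 7 of 27 (25.9%), compared with 21.9%. Outside promoters, 27 of the 62 sites (43.5%) lay within a protein-coding gene, compared with 50.6% of all sites. Another 24 (38.7%) lay between genes, compared with 36.9%. BCL6 sites had a median distance of 25.3 kb from the TSS of their gene, PPARα sites 16.6 kb and PPARδ sites 15.8 kb. No values over all sites are given beside these distances. Of the 62 sites, 25 lay within one of the 9 genes themselves, and 8 lay within another protein-coding gene.

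Short sequence elements were counted in the 200 bp around each site center, on both strands. The BCL6 element was found at 4 of 62 sites (6.45%), compared with 10.9% of all sites, and DR1 with at most 2 mismatches at 10 (16.1%), compared with 13.1%. Where BCL6 was called in any list, 4 of 35 sites held the BCL6 element (11.4%), compared with 15.1% of all such sites, and where PPARα was called, 10 of 57 held DR1 (17.5%), compared with 14.0%. The FOXA element TGTTTAC was found at 5 sites (8.06%), compared with 7.48%, the C/EBP element TTGCGCAA with 1 mismatch at 8 (12.9%), compared with 9.40%, and the E-box at 7 (11.3%), compared with 4.72%. A match is a description of the letters, not evidence that a factor bound them.

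Of 52 other genes of glycogen and glucose metabolism, 36 had at least 1 site, compared with 52.5% of all protein-coding genes. The median was 1 site per gene, as over all protein-coding genes. The 52 include forms other than those of liver, such as *Gys1* and *Pygm*, which had no site. PPARα peaks were found at 23 of the 52 in the fed and 33 in the fasted list, compared with 34.3% and 46.0% of all genes. BCL6 peaks were found at 18 and 15, compared with 28.0% and 20.6%, and PPARδ peaks at 14 and 6, compared with 18.6% and 8.69%. Summed over these genes, BCL6 went from 50 peaks fed to 32 fasted, PPARα from 66 to 97, and PPARδ from 23 to 6. The BCL6 count of the 9 genes in C57BL/6 livers, 26 and 25, did not show such a gap. In the fed *Bcl6* fl/fl list the 9 genes held 30 BCL6 peaks and the 52 others held 57, so the gap at the 9 genes was wider with that list. The genes with the most sites were *Gbe1*, the glycogen branching enzyme, and *Pfkfb3*, an isoform of *Pfkfb1*, with 13 each, followed by *Gsk3b*, a kinase that inhibits glycogen synthase, with 10, *Ugp2*, which makes the UDP-glucose for glycogen, with 9, and the glycolytic enolase *Eno1* with 8, a count that the glucose transporter gene *Slc2a1* shared. *Gbe1* had 8 BCL6 peaks in the fed and 3 in the fasted list, and *Gsk3b* had 2 PPARα peaks in the fed and 8 in the fasted list.

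The nearest-TSS rule stops at 100 kb. The farthest site inside it was the *Ppp1r3b* site at -74656, and the closest one outside it was a BCL6 site called in both states 106 kb upstream of *Slc2a2*. Beyond it, 7 sites lay 157 to 202 kb upstream of *Ppp1r3b*, and 3 of these had BCL6 and PPARα in both states. They are not in the counts above.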

How the data were processed

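Peak lists of 7 groups were used: each of the 3 factors in C57BL/6 livers of both feeding states, plus BCL6 in *Bcl6* fl/fl livers of the fed state. Reads were aligned by the authors with Bowtie (mm10), keeping those with a unique position and 1 per start. The authors took HOMER peaks from the pooled reads of 3 replicates with input as background and filtered them by DESeq2. The deposited values are peak positions in bp (start and end), without any score, and no normalization applies. All peaks of a list share 1 width. Fragments that match several places in the genome were left out, so repeats can lack peaks. The depth per sample is therefore unknown, and replicates could not be compared.

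Peak centers within 200 bp were joined by single linkage over all 7 lists. Sites were assigned to genes with RefSeq on GRCm38.p6, the assembly of mm10, using 56206 TSS of 21774 protein-coding genes. Windows of 200 bp were scanned for fixed sequences on both strands. Shares have 95% Wilson intervals, and no test was made, since each group is 1 list. Functions were tested on simulated data. Alternatives covered the joining distance, the reach, the TSS set, the fed BCL6 list, the promoter window and the scan. The genes and lists were chosen with earlier results of these data known. Named were all 9 genes, the 5 other pathway genes with the most sites (ties by symbol, which put *Eno1* before *Slc2a1*), and the 3 genes most like the one with the most sites. Knockout, H3K27ac and input libraries were not analysed here. Scripts ran in Python 3.11.15 (SciPy 1.17.1, NumPy 2.4.6), with figures from Matplotlib 3.10.9.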

Additional observations from a re-analysis of the deposited data

How the results depend on the processing

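Of 101 recomputed values, 89 stayed within 1.5 times the counts or within the intervals reported and 12 moved. Counting only peaks inside the 9 genes left 10 fed, 10 fasted and 12 *Bcl6* fl/fl BCL6 peaks, 18 fed and 23 fasted PPARα peaks, and 10 fed and 0 fasted PPARδ peaks, so that more than 1 in 2 peaks rested on the nearest-TSS rule. With 1 mismatch fewer, the BCL6 element was found at 0% and C/EBP at 0% of the 62 sites and DR1 at 4.84%, and in windows of 100 bp DR1 was found at 8.06% and FOXA at 3.23%. No paired analysis was possible because each list combines its replicates. For the same reason no replicate could be left out, and no stricter peak threshold could be set, since the lists hold no scores. A site near the authors' threshold can be called in one state and missed in the other, and how far depth differed between lists is unknown.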

Other observations

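By its peak counts in the 7 lists, *Ppp1r3b* was most like *Eif1a*, for which the differences summed to 5 peaks, and *Cyp2d40* and *Fam214a*, for which they summed to 6 each. *Eif1a* had 9 BCL6, 9 PPARα and 8 PPARδ peaks in the fed lists and 6, 10 and 0 in the fasted lists.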
